A study of Homo sapiens with 21 samples.

Results

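The genes described here are the protein-coding genes whose symbol begins with KCN, which encode the pore-forming and auxiliary subunits of potassium channels. The annotation held 95 such genes, all of which had a line in the count table, and 86 of them averaged 1 or more counts per library and were tested, among 30549 genes tested in all. The 9 that did not reach that level were KCNA5, KCNA6, KCNA10, KCNC2, KCNG4, KCNJ8, KCNK4, KCNK16 and KCNK17. The 86 comprised 26 voltage-gated pore genes, 9 silent voltage-gated subunits, 14 inward rectifiers, 12 two-pore channels, 8 calcium- or sodium-activated channels and 17 auxiliary subunits.

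Potassium channels let potassium leave the cell down its gradient and so hold the membrane potential negative. Voltage-gated channels open on depolarization, inward rectifiers and two-pore channels carry the resting leak, and calcium-activated channels couple the potential to intracellular calcium. Silent subunits do not form working channels alone and alter the channels of the KCNB family, and auxiliary subunits alter the gating or surface delivery of a pore. In Ewing sarcoma the fusion protein EWS/FLI joins the low-complexity amino-terminal part of EWS to the DNA-binding part of FLI, an ETS-family transcription factor that recognises GGAA, and it can also bind runs of GGAA repeats.

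The libraries came from A673, an established Ewing sarcoma cell line, in a knockdown and rescue design with 7 groups of 3 libraries. Cells of iLuc received an shRNA against luciferase and an empty vector and so kept endogenous EWS/FLI (endo-EF), whereas iEF cells received the empty vector and an shRNA that targets the 3′ untranslated part of EWS/FLI mRNA. The remaining 5 groups carried the same iEF shRNA and a FLAG-tagged cDNA in a retroviral vector. These were full-length EWS/FLI (WT-EF), a form with alanine in place of tyrosine in the first repeats of the EWS domain (DAF), a form with an internal deletion of the EWS domain (mut9), the deleted form with its remaining repeat tyrosines also changed to alanine (DAF-mut9), and a form without nearly all of the EWS domain (del22). Cells were infected with shRNA virus on day 1 and with cDNA or empty vector on day 5. Every group went through puromycin (2 µg/ml) and hygromycin (400 µg/ml), which ended on day 16. A single cell line was used, each group is a selected pool of infected cells, and in bulk RNA fewer cells expressing a gene cannot be told apart from less RNA per cell.

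Libraries held 32.9 to 46.2 M counts, and levels are given as CPM (counts scaled to the library size, corrected by TMM), so that 1 CPM stood for about 32.0 to 45.2 counts. FLI1, with exons shared by the fusion and by every cDNA, averaged 70.3 ± 16.2 CPM (SD, n = 3) in iLuc and 20.6 ± 0.553 in iEF. It averaged 24.5 CPM in WT-EF, where its excess over iEF did not pass the test (log2 fold change 0.24 ± 0.13, adjusted p = 0.196). The excess passed in the other construct groups, at 0.57 in mut9, 0.81 in DAF-mut9, 0.84 in DAF and 1.25 in del22 (49.5 CPM). Constructs compared below thus also differed in FLI1 RNA, and the part this played was not tested. Reads of the 3′ untranslated part were not counted apart, so iLuc and construct levels may not be like for like. The Ewing markers NR0B1, NKX2-2, STEAP1, PRKCB and LIPI were present and highest in iLuc. CD99, also on the Ewing list, held at most 8 counts in any library, and whether its reads were lost in counting was not tested. CD3E, CDH1 and MYOD1, markers of T cells, epithelium and muscle, held at most 2, 7 and 2 counts. Among other markers of these lists, PTPRC and EPCAM held at most 38 and 23 counts, and the muscle gene DES held at most 111 and averaged 0.0319 CPM in iLuc, 0.816 in iEF and 1.77 in del22. CDH5, GFAP and RBFOX3, markers of endothelium, glia and neurons, held at most 34, 27 and 22 counts. The neuronal SYT1 and the epithelial KRT8 were expressed in every group, at means of 94.1 to 279 and 8.84 to 19.2 CPM, highest in iLuc. A gene is said to have risen, fallen or changed where its Benjamini-Hochberg adjusted p in edgeR's quasi-likelihood test was below 0.05 over all genes tested, and fold changes are log2 values ± SE from that model, which includes the replicate set.

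Few potassium channel genes were abundant in these cells. Of the 86, 34 averaged 1 CPM or more over all libraries, 5 averaged 10 CPM or more and 17 lay under 0.1 CPM. Per kilobase of annotated exon, the highest mean levels were those of KCNE4 (36.2 CPM per kb) and KCNE3 (10.6), single-span auxiliary subunits that modulate KCNQ and other voltage-gated channels. Next came KCNQ5 at 4.88 CPM per kb, a channel of the M-current type, then KCNN4 at 2.65 and KCNN1 at 2.45, calcium-activated channels of intermediate and small conductance, and KCNS3 at 2.25, a silent subunit. Within the remaining classes the leaders were KCNJ2 (0.910) and KCNJ12 (0.665) among inward rectifiers and KCNK3 (0.807) and KCNK9 (0.639) among two-pore channels. The lengths take in every annotated exon of a gene, which can exceed 1 transcript. KCNMA1, with 39437 exon bases, ranks lower per kb than by its mean of 1795 counts per library. The CPM of all 86 genes summed to 411 in iEF and 423 in iLuc, and to 363 to 440 over the 7 groups.

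Loss of endo-EF was first examined by comparing iLuc with iEF. Of the 86 genes, 49 changed (57.0%), with 24 higher and 25 lower in iLuc. Over all genes tested 41.1% changed, 18.7% being higher and 22.4% lower, and over protein-coding genes 54.7%, so the share was close to that of other protein-coding genes. The median log2 difference of the 86 was -0.05, beside 0.01 over all genes. By class, the counts in each direction were as follows. Auxiliary subunits changed upward in 7 cases and downward in 3, two-pore channels upward in 1 and downward in 6, calcium- or sodium-activated channels upward in 2 and downward in 4, inward rectifiers upward in 2 and downward in 3, silent subunits upward in 3 and downward in 1, and voltage-gated pores upward in 9 and downward in 8. The class medians ran from -2.93 for two-pore channels to 0.28 for silent subunits. These medians stay the same when KCNJ15 and KCNK1, which had 0 counts in iLuc, are set to their bounds, and no test compared the classes.

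The share depended on the level, in a split made after the values were seen. Of the 34 genes with a mean of 1 CPM or more over all libraries, 28 changed (82.4%, beside 60.5% of protein-coding genes at that level), and of the 52 below it 21 changed (40.4%, beside 36.9%). A gene high in a few groups only can reach the level through those groups, so these shares are descriptions. The 6 genes at 1 CPM or more that did not pass were KCND1, KCNG1, KCNJ14, KCNMB2, KCNMB3 and KCNMB4. KCNJ14, an inward rectifier, and KCNMB3, a BK beta subunit, are named here from that count alone, and KCNJ14 read 1.49, 2.14 and 2.13 CPM in iLuc and 1.42, 2.25 and 2.24 in iEF (-0.03 ± 0.21, adjusted p = 0.934).

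**Figure D1:**
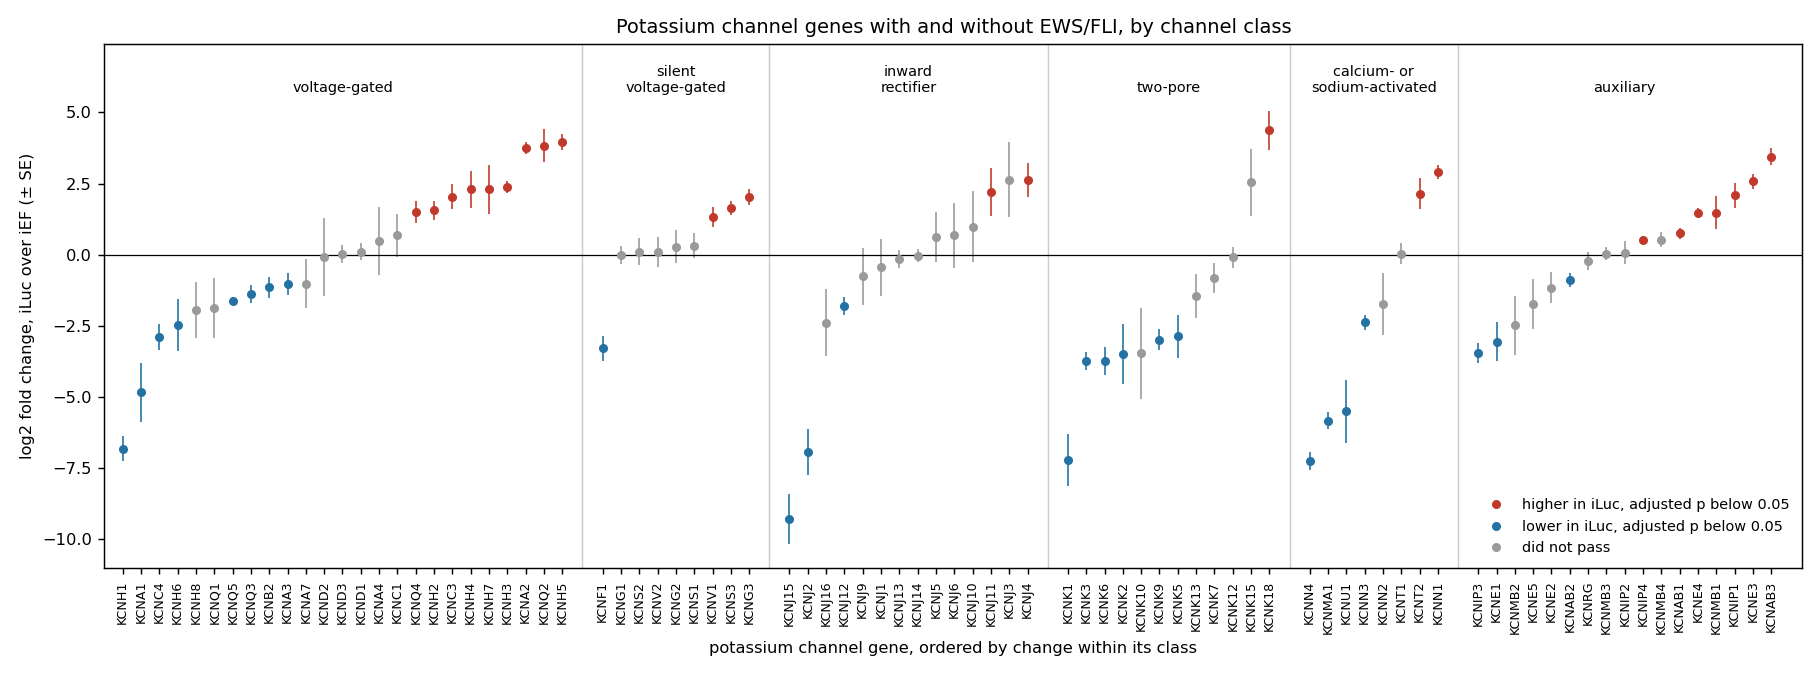
Log2 fold change (y axis, ± SE) of the potassium channel genes in iLuc over iEF, ordered within channel class (x axis), with 1 gene left out. Red points passed the test as higher in iLuc (24 genes), blue as lower (25), and grey did not pass. Two-pore and calcium- or sodium-activated channels lie mostly below 0. KCNJ15 and KCNK1 had 0 counts in iLuc, so their fitted values are not measured sizes.

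The voltage-gated genes KCNH5 and KCNH1, close relatives of the ether-à-go-go family, moved in opposite directions. In iLuc, KCNH5 read 18.3, 17.7 and 14.01 CPM in the 3 libraries, against 0.653, 1.47 and 1.13 in iEF (log2 fold change 3.96 ± 0.29, SE; adjusted p = 7.91e-10). KCNH1 read 3.13, 5.01 and 6.78 CPM in iEF and had 1, 3 and 1 counts in the iLuc libraries, a 121-fold difference in summed counts (95% exact interval 51.5 to 374, counting error only). The groups did not overlap for either gene, and 46.8% of the annotated exon bases of KCNH1 also belong to other genes. Of the other KCNH genes, KCNH2, KCNH3, KCNH4 and KCNH7 rose and KCNH6 fell, the last 3 of them under 1 CPM. KCNH3, a brain-type channel, averaged 4.93 ± 0.305 CPM in iLuc and 0.941 ± 0.0696 in iEF (2.38 ± 0.21, adjusted p = 8.22e-09), and KCNH2, the channel of late cardiac repolarization, 2.77 ± 1.46 and 0.936 ± 0.339 (1.56 ± 0.33, adjusted p = 0.000584).

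KCNA2, a Shaker-type delayed rectifier of axons, read 25.5, 29.7 and 33.9 CPM in iLuc and 1.84, 3.00 and 1.89 in iEF (log2 fold change 3.76 ± 0.21, SE; adjusted p = 1.2e-11), and every iLuc library stood above every iEF library. Its relative KCNA3, known from T lymphocytes, averaged 0.987 ± 0.551 CPM in iLuc and 1.97 ± 0.394 in iEF (-1.03 ± 0.39, adjusted p = 0.0402). KCNQ5 fell by 1.61 on the log2 scale in iLuc, from 78.1 ± 7.95 to 25.6 ± 1.88 CPM (SE 0.13, adjusted p = 2.2e-09). KCNC4, a Shaw-type fast channel, also fell, from 2.08 ± 0.911 to 0.282 ± 0.202 CPM (-2.88 ± 0.46, adjusted p = 2.98e-05). The Shab-type gene KCNB2 was lower in iLuc, at 0.231, 0.265 and 0.376 CPM against 0.443, 0.501 and 1.03 (-1.15 ± 0.38, adjusted p = 0.0184).

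Among calcium-activated channels, the small-conductance KCNN1 rose and KCNN3, KCNN4 and KCNMA1 fell. KCNN1 read 19.9, 20.2 and 36.4 CPM in iLuc and 3.92, 2.41 and 3.46 in iEF (log2 fold change 2.92 ± 0.25, SE; adjusted p = 6.02e-09). KCNN4, the intermediate-conductance channel known from red cells, read 14.7, 11.98 and 11.4 CPM in iEF and 0.0771, 0.0663 and 0.1002 in iLuc (log2 fold change -7.24 ± 0.32, SE; adjusted p = 4.27e-13), where it held 3, 3 and 4 counts. KCNMA1, the pore of the large-conductance BK channel, read 119, 108 and 159 CPM in iEF and 1.93, 1.99 and 2.88 in iLuc (log2 fold change -5.83 ± 0.29, SE; adjusted p = 1.83e-12). KCNN3, another small-conductance channel, averaged 8.27 ± 2.37 CPM in iEF and 1.60 ± 0.506 in iLuc (-2.38 ± 0.27, adjusted p = 3.45e-07). For these 4 genes the iLuc and iEF libraries did not overlap.

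Of the 12 two-pore channels, 6 were lower with endo-EF, 1 was higher and 5 did not pass. The acid-sensitive two-pore channels KCNK3 and KCNK9 averaged 4.58 ± 1.76 and 4.48 ± 1.10 CPM in iEF and 0.337 ± 0.0985 and 0.570 ± 0.397 in iLuc, differences of -3.74 ± 0.32 and -2.99 ± 0.37 on the log2 scale (adjusted p = 5.99e-09 and 1.29e-06). KCNK6, a TWIK-type channel, changed by -3.74 ± 0.50 (adjusted p = 2.88e-06). Its relative KCNK1 had 54 counts summed over iEF and 0 in iLuc. It was 19.98-fold lower with a floor of 3 counts set over the group, and the 95% exact lower limit of the ratio was 15.7. KCNK18 was the exception that rose, from 3 counts summed over iEF to 87 in iLuc, a ratio of 26.1 with a counting interval of 8.65 to 129. KCNK1 and KCNK18, with KCNH4, KCNH6 and KCNH7 above and KCNJ15, KCNIP1, KCNIP3 and KCNMB1 below, lie under the level of 1 CPM used for naming genes and were chosen after their values were seen.

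Of the inward rectifiers, KCNJ15, KCNJ2 and KCNJ12 were lower in iLuc. KCNJ15 held 1.91, 2.06 and 1.97 CPM in iEF and 0 counts in iLuc, 81.8-fold lower with the same floor (95% exact lower limit of the ratio 65.9). KCNJ2, a strong rectifier that sets the resting potential of muscle, read 8.78, 1.78 and 49.5 CPM in iEF, so that the iEF libraries differed widely among themselves, and 4, 0 and 11 counts in iLuc (log2 fold change -6.93 ± 0.80, SE; adjusted p = 4.4e-07). KCNJ12 averaged 2.97 ± 0.417 CPM in iEF and 0.854 ± 0.518 in iLuc (-1.80 ± 0.33, adjusted p = 0.00013), but it has a near-identical copy, KCNJ18, and reads of the 2 genes may not be told apart.

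Silent subunits gave KCNS3 at 20.1, 16.9 and 13.7 CPM in iLuc and 4.04, 7.98 and 4.86 in iEF (1.64 ± 0.23, adjusted p = 6.72e-06), and KCNG3 at 3.05 ± 0.852 against 0.740 ± 0.156 (2.03 ± 0.29, adjusted p = 6.91e-06). KCNF1 went the other way, 0.221 ± 0.0972 against 2.40 ± 1.72 CPM (-3.29 ± 0.44, adjusted p = 3.44e-06). Among auxiliary subunits, KCNE3 read 57.5, 53.0 and 88.2 CPM in iLuc and 13.4, 7.38 and 12.7 in iEF (2.58 ± 0.26, adjusted p = 8.3e-08), and KCNE4 144, 178 and 164 and 56.0, 81.2 and 42.2 (1.47 ± 0.18, adjusted p = 1.12e-06). KCNAB3, a cytoplasmic partner of Shaker channels, averaged 8.60 ± 2.04 and 0.811 ± 0.261 CPM (3.44 ± 0.30, adjusted p = 6.86e-09). The calcium-binding partners of KCND channels split, with KCNIP1 higher (2.09 ± 0.44, adjusted p = 0.000547) and KCNIP3 lower in iLuc (-3.45 ± 0.34, adjusted p = 5.59e-08). For KCNS3, KCNG3, KCNF1, KCNE3, KCNE4 and KCNAB3 the iLuc and iEF libraries did not overlap. Of the exon bases of KCNE3, 16.9% also belong to another gene.

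**Figure D2:**
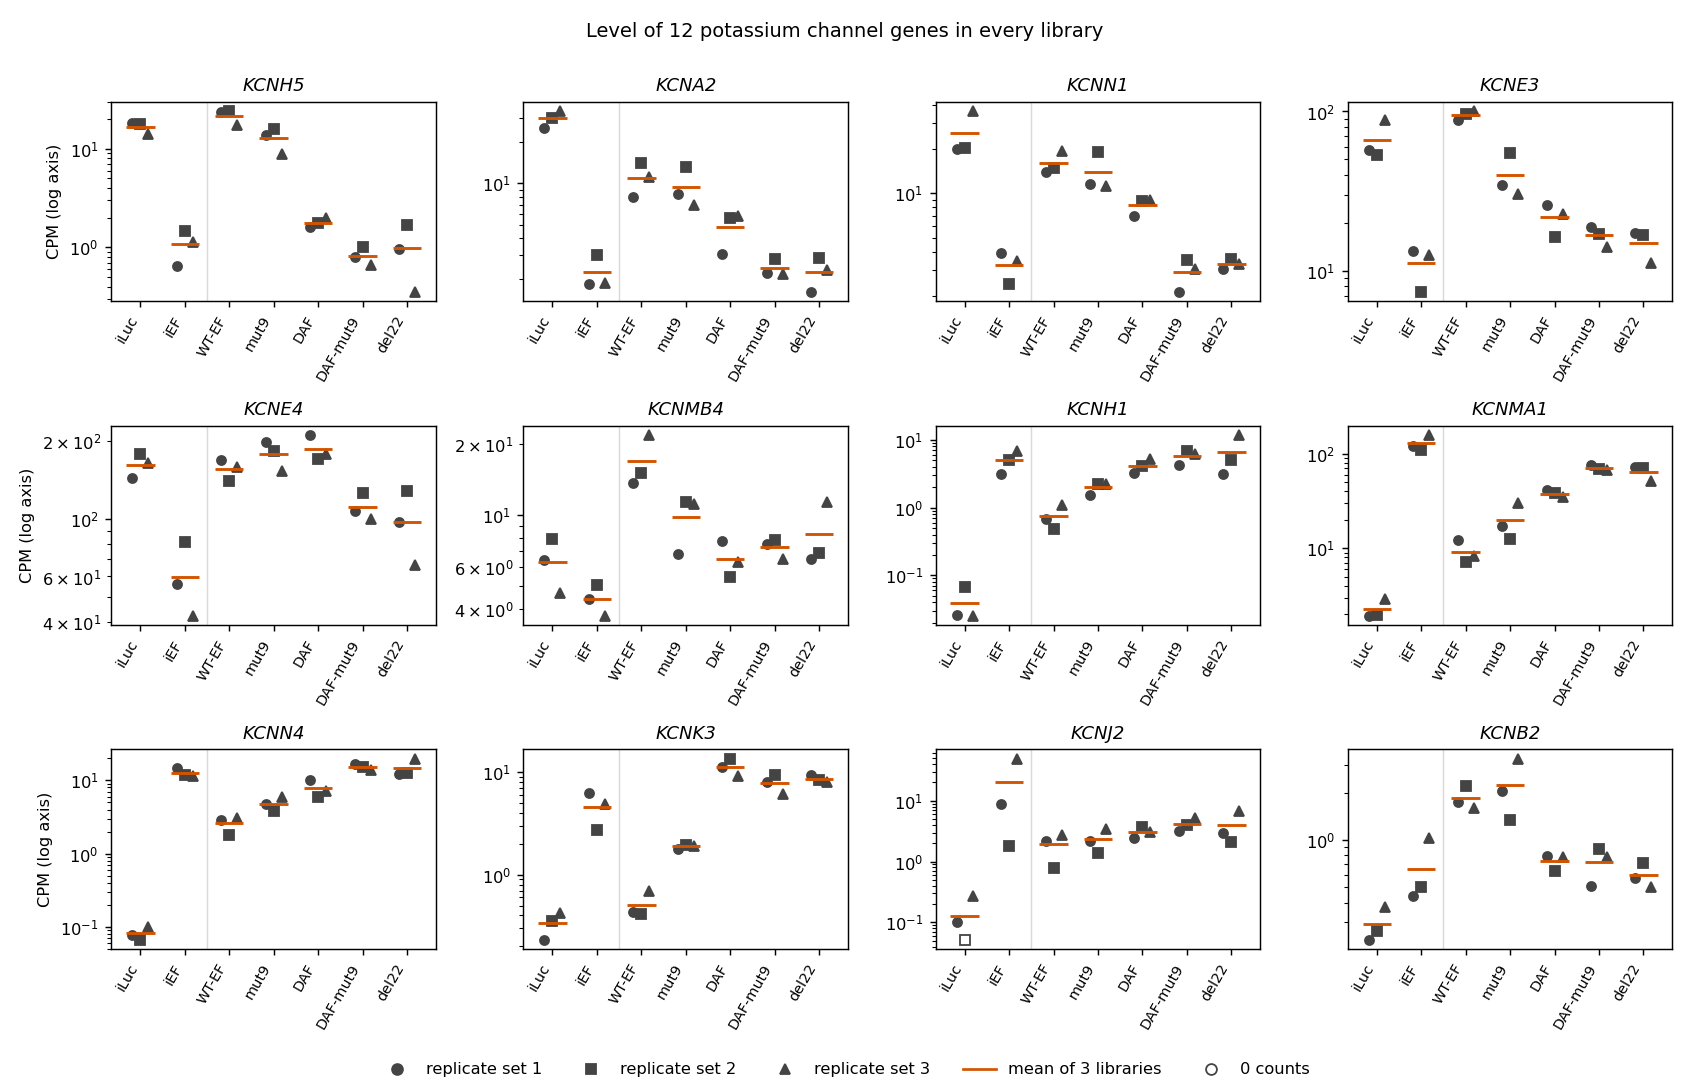
CPM (y axis, log scale, own range in each panel) of 12 potassium channel genes in each of the 21 libraries, by group (x axis). Marker shapes give the replicate set, orange lines the mean of 3 libraries, and an open marker a library with 0 counts. KCNMA1, KCNN4 and KCNH1 are lowest in iLuc and higher from WT-EF through mut9 to DAF, KCNH5 is highest in iLuc, WT-EF and mut9, and KCNE4 has its lowest mean in iEF.

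Re-expression of full-length EWS/FLI moved 36 of the 86 genes from their iEF level (41.9%), 18 upward and 18 downward, against 28.3% of all genes (11.4% higher and 16.9% lower) and 39.4% of protein-coding genes. The medians were -0.04 for the 86 and 0.00 over all genes. KCNH5 reached 23.3, 24.3 and 17.2 CPM (4.33 ± 0.30, adjusted p = 1.3e-09) and KCNE3 88.3, 96.6 and 101 (3.10 ± 0.27, adjusted p = 2.69e-08). Their differences from iLuc, 0.37 ± 0.24 and 0.53 ± 0.25, did not pass the test (adjusted p = 0.352 and 0.157). KCNA2 and KCNAB3 rose by 2.29 and 1.88 on the log2 scale and remained lower than in iLuc, with differences of -1.47 ± 0.19 and -1.56 ± 0.26 (adjusted p = 8.35e-06 and 0.000233).

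Several of the genes that were low with endo-EF fell with WT-EF. KCNMA1 read 12.3, 7.11 and 8.35 CPM with WT-EF (-3.80 ± 0.25, adjusted p = 9.66e-10), still above iLuc by 2.02 ± 0.26 on the log2 scale (adjusted p = 9.7e-06). KCNN4 read 2.91, 1.81 and 3.05 CPM (-2.32 ± 0.21, adjusted p = 4.32e-08) and exceeded iLuc by 4.93 ± 0.33 (adjusted p = 1.85e-09), and KCNH1 read 0.673, 0.484 and 1.08 CPM (-2.71 ± 0.29, adjusted p = 4.37e-07). KCNK3 and KCNK6 came down to 0.510 ± 0.154 and 0.0649 ± 0.0289 CPM, and their differences from iLuc did not pass the test (0.59 ± 0.37 and -1.08 ± 0.75, adjusted p = 0.319 and 0.376). KCNMB4, a beta subunit of the BK channel, rose with WT-EF to 13.7, 15 and 21.9 CPM from 4.39, 5.07 and 3.73 in iEF (1.93 ± 0.26, adjusted p = 6.18e-06) and was lower in iLuc, at 6.42, 7.91 and 4.66 (WT-EF over iLuc 1.40 ± 0.25, adjusted p = 0.000374). Between WT-EF and iLuc in all, 33 of the 86 genes differed (38.4%), 17 higher and 16 lower with WT-EF, against 18.3% of all genes (9.78% higher and 8.52% lower) and 27.7% of protein-coding genes.

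The internally deleted form mut9 moved 29 of the 86 genes (33.7%), 16 upward and 13 downward, against 14.6% of all genes (6.22% higher and 8.33% lower) and 20.6% of protein-coding genes. The medians were 0.12 and 0.02. KCNH5 read 13.8, 15.9 and 8.78 CPM (3.56 ± 0.29, adjusted p = 4.04e-08), KCNN1 11.6, 19.0 and 11.2 (2.07 ± 0.25, adjusted p = 4.37e-06), and KCNA2 8.35, 13.1 and 6.98 (2.08 ± 0.20, adjusted p = 3.41e-07). KCNMA1 fell to 17.3, 12.6 and 30.3 CPM (-2.71 ± 0.24, adjusted p = 1.1e-07), and no mut9 library of these 4 genes overlapped iEF. KCNB2 rose in mut9 to 2.06, 1.35 and 3.32 CPM (1.77 ± 0.32, adjusted p = 0.000552) and in WT-EF to 1.75, 2.23 and 1.60 (1.55 ± 0.32, adjusted p = 0.000926), the reverse of its lower level in iLuc. KCNK9 was likewise higher with mut9, at 7.75, 7.09 and 13.4 CPM (1.06 ± 0.31, adjusted p = 0.0254), and lower in iLuc. The silent subunit KCNG1 fell with mut9 (-1.32 ± 0.33, adjusted p = 0.00802) and with WT-EF (-1.20 ± 0.33, adjusted p = 0.00811), and its iLuc difference did not pass the test (-0.02 ± 0.32, adjusted p = 0.971). The mut9 call of KCNG1 was lost without iEF replicate 3 (-1.05, adjusted p = 0.0639) or mut9 replicate 2 (-1.16, adjusted p = 0.0601).

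Set directly against WT-EF, mut9 differed in 9 of the 86 genes (10.5%), 7 higher and 2 lower, beside 6.15% of all genes (4.95% higher and 1.2% lower) and 9.96% of protein-coding genes. The higher genes were KCNK6, KCNK3, KCNH1, KCNMA1, KCNN3, KCNN4 and KCNQ5, each of which was lower in iLuc and WT-EF than in iEF. KCNK3, for instance, read 1.78, 1.94 and 1.92 CPM with mut9 and 0.432, 0.411 and 0.688 with WT-EF (1.87 ± 0.31, adjusted p = 0.000756). The lower genes were KCNE3 (-1.25 ± 0.25, adjusted p = 0.00361) and KCNH3 (-0.85 ± 0.20, adjusted p = 0.0138). Without WT-EF replicate 2 the count was 2, the calls of KCNH1, KCNH3 and KCNK6 being among those lost (adjusted p = 0.0615, 0.0821 and 0.0819). KCNH3 also lost its call without WT-EF replicate 1, mut9 replicate 1 or mut9 replicate 3 (adjusted p = 0.0515, 0.0736 and 0.0753), and KCNH1 with no replicate block (adjusted p = 0.0603). With ComBat-adjusted values, on the log2(value + 1) scale, KCNK6 gave 0.40 (adjusted p = 0.115) beside 2.77.

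DAF moved 13 of the 86 genes from iEF (15.1%), 9 upward and 4 downward, against 7.42% of all genes (3.41% higher and 4.02% lower) and 11.3% of protein-coding genes. The medians were -0.19 and -0.03. KCNE4 read 212, 170 and 178 CPM with DAF and 56.0, 81.2 and 42.2 in iEF (1.68 ± 0.18, adjusted p = 6.1e-06), and its differences from WT-EF did not pass the test (0.25 ± 0.18, adjusted p = 0.339). KCNN1 reached 7.04, 8.80 and 8.94 CPM (1.31 ± 0.24, adjusted p = 0.00177) and KCNA2 3.08, 5.58 and 5.75 (1.09 ± 0.20, adjusted p = 0.00178), both above iEF in every library and below WT-EF by the test (adjusted p = 0.00398 and 7.63e-05). KCNE3 rose by 0.96 (adjusted p = 0.0234), a call lost without iEF replicate 2 (0.73, adjusted p = 0.117), DAF replicate 1 (0.83, 0.129) or DAF replicate 3 (0.91, 0.0848). The other genes that rose included KCNK3, KCNMB2, KCNH4 and KCNMB1.

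KCNK3 rose with DAF and fell with endo-EF, WT-EF and mut9. It read 11.2, 13.5 and 9.07 CPM with DAF, above 6.16, 2.69 and 4.89 in iEF (1.30 ± 0.25, adjusted p = 0.00256). Against WT-EF the DAF level was higher by 4.45 ± 0.31 on the log2 scale (adjusted p = 3.6e-09). In del22 it read 9.38, 8.32 and 8.03 CPM and in DAF-mut9 8.04, 9.38 and 6.08, differences from iEF that did not pass the test (adjusted p = 0.0604 and 0.107), and DAF did not differ from del22 by the test (0.39 ± 0.24, adjusted p = 0.746).

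The genes that fell with DAF were KCNJ15, KCNMA1, KCNJ2 and KCNN4. KCNMA1 read 41.0, 38.1 and 34.6 CPM (-1.75 ± 0.23, adjusted p = 5.72e-05), between iEF and WT-EF with no overlap with either group. KCNN4 read 10.2, 5.97 and 7.26 CPM (-0.72 ± 0.20, adjusted p = 0.0261), and lost its call with no replicate block (adjusted p = 0.0769) and on leaving out iEF replicate 1 or 2 or DAF replicate 2 or 3 (adjusted p = 0.0923, 0.0959, 0.126 and 0.14). KCNH5 and KCNH1, which changed with WT-EF, did not pass the test with DAF. KCNH5 read 1.61, 1.75 and 1.97 CPM (0.75 ± 0.30, adjusted p = 0.165) and KCNH1 3.25, 4.10 and 5.16 (-0.21 ± 0.26, adjusted p = 0.741).

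Relative to del22, which has the DNA-binding part but almost no EWS domain, DAF differed in 4 of the 86 genes (4.65%), against 0.972% of all genes (0.789% higher and 0.183% lower) and 1.54% of protein-coding genes. KCNN1 (1.31 ± 0.24, adjusted p = 0.00621), KCNA2 (1.08 ± 0.20, adjusted p = 0.00653) and KCNE4 (0.98 ± 0.18, adjusted p = 0.00563) were higher with DAF, and KCNN4 was lower (-0.94 ± 0.20, adjusted p = 0.017). The libraries of the 2 groups did not overlap for any of the 4. With no replicate block KCNA2 and KCNN4 lost their calls (adjusted p = 0.12 and 0.0721), and without del22 replicate 3 only 1 call was left, with adjusted p = 0.0543, 0.0593 and 0.154 for KCNN1, KCNE4 and KCNN4. KCNA2 lost its call without del22 replicate 1 or DAF replicate 3 (adjusted p = 0.0584 and 0.0723) or with ComBat-adjusted values (0.68, adjusted p = 0.273), and KCNN4 without del22 replicate 2 or DAF replicate 2 or 3 (adjusted p = 0.071, 0.137 and 0.156).

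With DAF-mut9, 5 of the 86 genes differed from iEF (5.81%), 3 higher and 2 lower, beside 3.4% of all genes (1.26% higher and 2.14% lower) and 5.17% of protein-coding genes. With del22 5 also differed, 2 higher and 3 lower, beside 2.67% (0.881% and 1.79%) and 4.04%. The medians were -0.17 and -0.03, beside -0.02 and 0.00 over all genes. Both counts were 1 without iEF replicate 3. Every DAF-mut9 value rests on reading the table's columns for that group from the sample titles.

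KCNMB2, a BK beta subunit that inactivates the channel, was higher with DAF, DAF-mut9 and del22 than in iEF. It read 0.0467, 0.594 and 0.108 CPM in iEF, 0.713, 1.31 and 5.15 with del22, 1.36, 2.06 and 1.62 with DAF-mut9 and 1.20, 1.75 and 3.13 with DAF, no library of these 3 groups overlapping iEF (log2 fold changes 3.17 ± 0.63, 2.91 ± 0.63 and 3.07 ± 0.63, adjusted p = 0.00963, 0.013 and 0.00376). With WT-EF it read 0.240, 0.169 and 0.0982 CPM, lower than with DAF by the test (DAF over WT-EF 3.44 ± 0.64, adjusted p = 0.000396) and than with del22 (WT-EF over del22 -3.54 ± 0.65, adjusted p = 0.000286). Its iEF libraries held 2, 19 and 4 counts, and 32.1% of its exon bases also belong to another protein-coding gene on the same strand. Without iEF replicate 3 the del22 and DAF-mut9 calls were lost (2.52 and 2.32, adjusted p = 0.0861 and 0.103), the del22 call was also lost without del22 replicate 3 (2.20, adjusted p = 0.101), and the DAF-mut9 call without DAF-mut9 replicate 1 or 2 (adjusted p = 0.0636 and 0.0631).

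KCNE4 and KCNMA1 also moved with these forms. KCNE4 read 107, 127 and 100 CPM with DAF-mut9 (0.92 ± 0.18, adjusted p = 0.00648) and 96.9, 128 and 66.3 with del22 (0.70 ± 0.18, adjusted p = 0.0381), the latter overlapping iEF. KCNMA1 read 76.8, 69.2 and 66.7 (-0.85 ± 0.23, adjusted p = 0.0411) and 71.5, 70.2 and 51.7 (-0.97 ± 0.23, adjusted p = 0.0234), below every iEF library. The KCNMA1 call with DAF-mut9 and the KCNE4 call with del22 were lost with no replicate block (adjusted p = 0.0616 and 0.0943), and all 4 were lost without iEF replicate 3 (adjusted p = 0.0637 to 0.245). The KCNMA1 calls also needed iEF replicate 2 and each DAF-mut9 library (adjusted p = 0.0598 to 0.207 without 1 of them), or del22 replicates 1 and 3 (adjusted p = 0.067 and 0.199), and the KCNE4 call with del22 needed iEF replicate 1 and del22 replicates 1 and 2 (adjusted p = 0.11, 0.102 and 0.242). With ComBat-adjusted values the adjusted p was 0.352 and 0.302 for KCNMA1 with DAF-mut9 and del22 and 0.0542 for KCNE4 with del22, which gave 0.0511 with the filterByExpr filter. KCNJ15 was lower than iEF with every construct, at 0.137, 0.321 and 0.101 CPM with del22 (-3.37 ± 0.47, adjusted p = 0.000834) and 0.308, 0.247 and 0.335 with DAF-mut9 (-2.73 ± 0.44, adjusted p = 0.00198). KCNA3 was lower with del22 (-1.78 ± 0.41, adjusted p = 0.0231), a call lost without iEF replicate 1 or 3 or any del22 library (adjusted p = 0.0546 to 0.127), and KCNIP1 was higher with DAF-mut9 (1.88 ± 0.45, adjusted p = 0.0229).

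KCNJ2 had its highest level in the iEF replicate 3 library, at 49.5 CPM. Its fall was -2.92 ± 0.58 with WT-EF, -2.61 ± 0.57 with mut9 and -2.00 ± 0.58 with DAF (adjusted p = 0.000622, 0.00318 and 0.0374), and the libraries overlapped iEF in all 3 cases. Without iEF replicate 3 the mut9 value was -1.43 (adjusted p = 0.0667). Within the construct groups KCNJ2 ranged from 0.798 to 6.82 CPM.

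**Figure D3:**
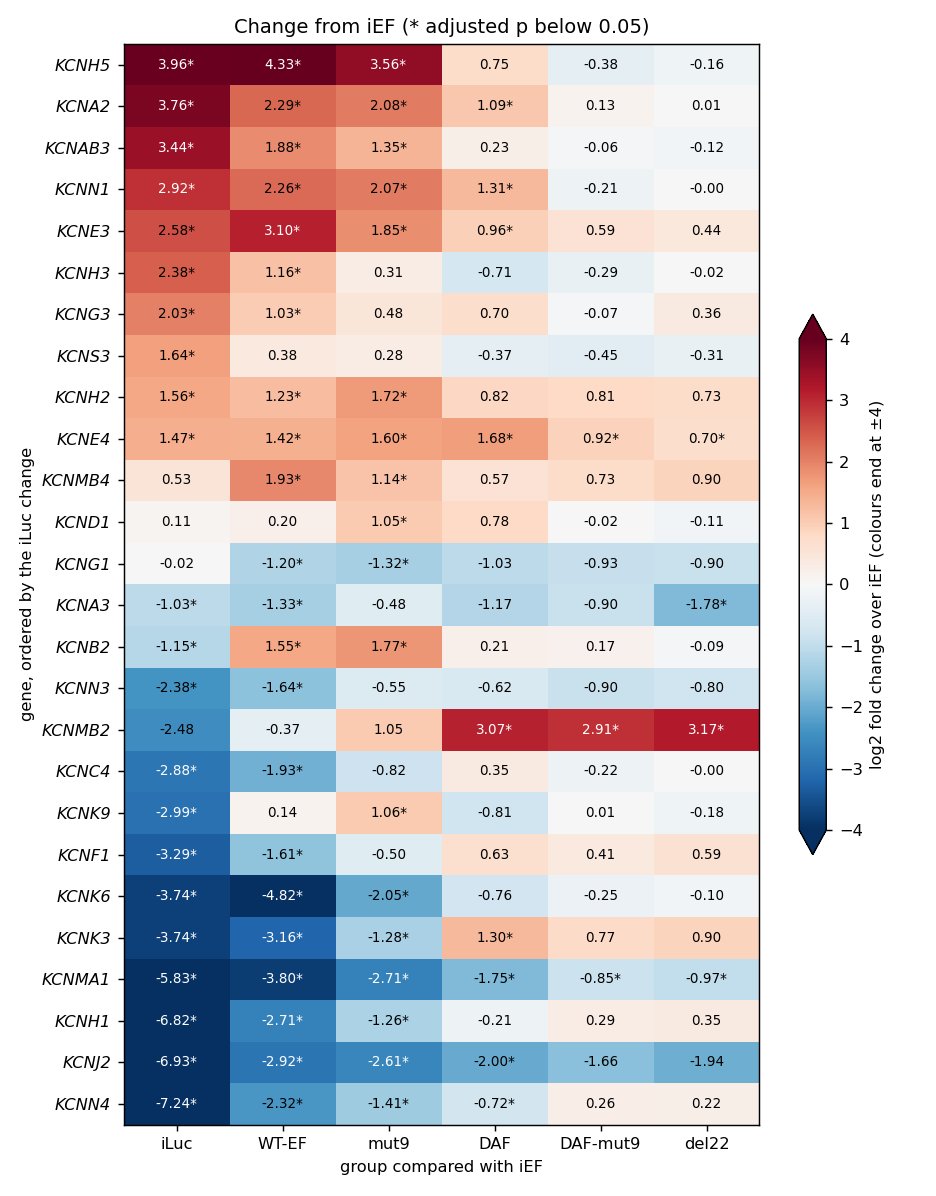
Log2 fold change over iEF (colour, and printed in each cell) of the potassium channel genes named by rule (rows, ordered by the iLuc change) in iLuc and the 5 construct groups (columns). Asterisks mark adjusted p below 0.05. KCNE4 and KCNMA1 pass in all 6 columns, KCNMB2 in DAF, DAF-mut9 and del22, and KCNK3 falls in the first 3 columns and rises with DAF. The 6 columns share the iEF libraries.

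Because those comparisons share the iEF libraries, the change with endo-EF was set beside comparisons with del22, which share no library with it. WT-EF and del22 differed in 29 of the 86 genes (33.7%), 16 higher and 13 lower with WT-EF, against 25.2% of all genes (10.7% higher and 14.5% lower) and 36.1% of protein-coding genes. Of the 16, 12 were also higher in iLuc than iEF, 75% of this list and 50% of the 24 higher genes, and of the 13, 11 were also lower in iLuc, 84.6% and 44%. Over all genes the shares were 77.7% and 44.3% for higher genes and 82.7% and 53.8% for lower genes. The 12 included KCNH5, KCNE3, KCNA2, KCNN1 and KCNE4, and the 11 included KCNK3, KCNH1, KCNMA1 and KCNN4. KCNB2 was the gene that went the other way.

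Between mut9 and del22, 21 of the 86 genes differed (24.4%), 12 higher and 9 lower, against 9.17% of all genes (4.52% higher and 4.64% lower) and 13.4% of protein-coding genes. Here 9 of the 12 were also higher in iLuc (75% and 37.5% of the 24) and 8 of the 9 also lower (88.9% and 32% of the 25), beside 77.0% and 18.6%, and 89.1% and 18.5%, over all genes. KCNB2 and KCNK9 were higher with mut9 and lower in iLuc. The 4 genes that separated DAF from del22 all had the same direction in iLuc. Over all genes that separated them, the shares were 63.9% for higher and 75% for lower genes, and 4 genes are few beside these. The 4 were 3 of the 24 higher genes (12.5%) and 1 of the 25 lower genes (4%), beside 2.69% and 0.615% over all genes.

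The effect of the tyrosine substitutions was examined in both backgrounds. DAF differed from WT-EF in 26 of the 86 genes (30.2%), 13 higher and 13 lower, beside 24.9% of all genes (14.3% higher and 10.6% lower) and 36.4% of protein-coding genes. The largest changes among genes named by rule were KCNK3 (4.45 ± 0.31, adjusted p = 3.6e-09), KCNK6 (4.06 ± 0.58, adjusted p = 2.02e-05) and KCNMB2 upward and KCNH5 (-3.58 ± 0.28, adjusted p = 1.82e-08), KCNE3 (-2.14 ± 0.26, adjusted p = 2.68e-06) and KCNH3 (-1.88 ± 0.22, adjusted p = 2.39e-06) downward. DAF-mut9 differed from mut9 in 21 genes (24.4%), 8 higher and 13 lower, against 9.83% of all genes (5.15% higher and 4.68% lower) and 14.4% of protein-coding genes. KCNH5 (-3.94 ± 0.30, adjusted p = 2.6e-08) and KCNN1 (-2.28 ± 0.25, adjusted p = 2.2e-06) were lower with DAF-mut9, at 2.90 ± 0.705 against 13.97 ± 4.40 CPM for KCNN1. KCNK3 (2.06 ± 0.27, adjusted p = 1.87e-05) and KCNMA1 (1.86 ± 0.23, adjusted p = 1.43e-05) were higher.

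Whether the 2 effects differed was tested by their interaction, the substitution effect in the deleted form minus that in the full-length form, although the 2 substituted forms do not change the same tyrosines. It passed for 7 of the 86 genes (8.14%), 1 positive and 6 negative, beside 3.33% of all genes (0.504% positive and 2.82% negative) and 5.52% of protein-coding genes. KCNN1 fell by 0.95 with the substitutions in the full-length form and by 2.28 in the deleted form (interaction -1.32 ± 0.33, adjusted p = 0.0296). KCNK3 rose by 4.45 and 2.06 (interaction -2.40 ± 0.40, adjusted p = 0.00118), with WT-EF at 0.432, 0.411 and 0.688 CPM. KCNE4 changed by 0.25, which did not pass, and fell by 0.68 (interaction -0.93 ± 0.25, adjusted p = 0.0431). With no replicate block 2 genes passed, KCNK3 and KCNN3, and without WT-EF replicate 2 or without mut9 replicate 1 the count was 1.

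**Figure D4:**
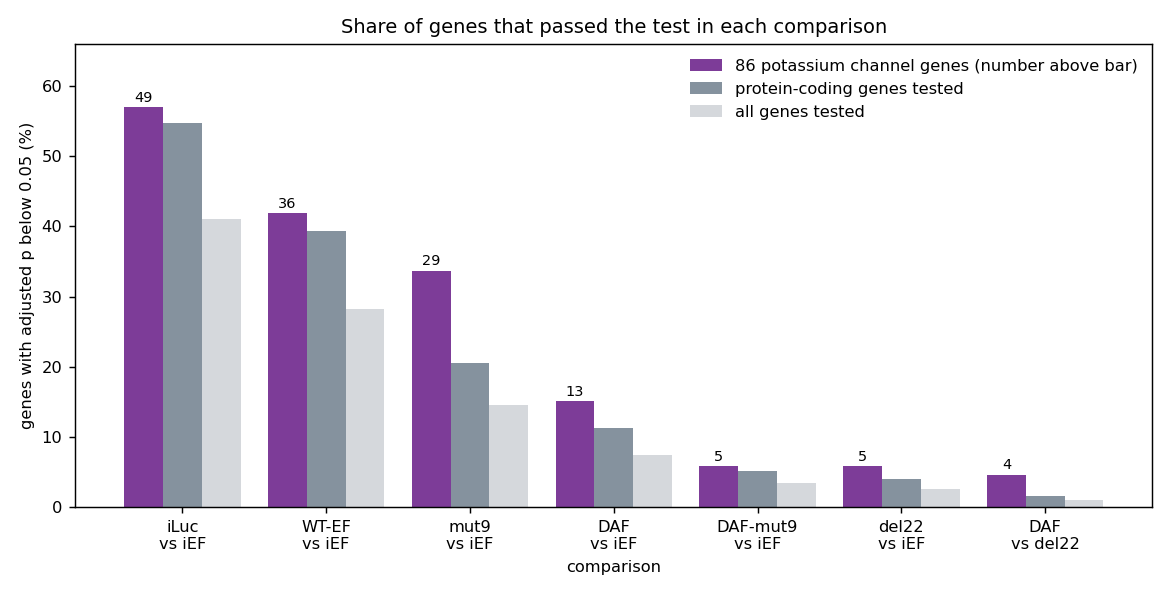
Percent of genes with adjusted p below 0.05 (y axis) in 7 comparisons (x axis), for the 86 potassium channel genes (purple, their number above the bar), for the protein-coding genes tested (dark grey) and for all genes tested (light grey). Among comparisons with iEF, the purple bars fall from 57.0% for iLuc to 5.81% for DAF-mut9 and del22. Among these they stand furthest above the protein-coding share for mut9, at 33.7% against 20.6%.

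Since EWS/FLI can bind GGAA repeats, the reference genome was searched on both strands for uninterrupted runs of GGAA of 4 or more units whose start lay within 50 kb of each gene's canonical transcript start. The longest run reached 6 or more units for 18.6% of the 86 genes and for 16.6% of the protein-coding genes tested, 10 or more units for 10.5% and 9.88%, and 4 or more for 33.7% and 33.1%. The split by response was made after the values were seen. Runs of 6 or more units lay near 10 of the 24 genes higher in iLuc (41.7%), 5 of the 25 lower (20%) and 1 of the 37 that did not pass (2.70%), and over protein-coding genes the shares were 21.5%, 15.5% and 14.6%. Of the 37, 31 averaged under 1 CPM, beside 21 of the 49 that changed, and the part of level was not tested. Among genes that rose with DAF the count was 7 of 9 (77.8%), beside 29.5% of protein-coding genes that rose, and the 3 genes higher with DAF than with del22, KCNN1, KCNA2 and KCNE4, all had one, beside 48.5%. The presence of a run says nothing of binding, which was not measured in these libraries.

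The runs of 8 genes that changed with endo-EF are shown as examples, read 5′ to 3′ on the strand that carries GGAA, with the run in capitals and 15 flanking bases on each side in lower case. The first 6 belong to genes higher in iLuc and the last 2, KCNMA1 and KCNK3, to genes lower in iLuc.
KCNN1: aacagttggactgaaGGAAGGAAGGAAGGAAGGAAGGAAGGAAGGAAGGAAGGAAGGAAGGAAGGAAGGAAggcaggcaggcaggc
KCNA2: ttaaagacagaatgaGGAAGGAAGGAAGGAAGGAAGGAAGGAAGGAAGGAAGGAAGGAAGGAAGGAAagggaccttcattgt
KCNH4: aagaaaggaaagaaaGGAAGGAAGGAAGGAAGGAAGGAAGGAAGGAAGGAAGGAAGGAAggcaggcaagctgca
KCNE4: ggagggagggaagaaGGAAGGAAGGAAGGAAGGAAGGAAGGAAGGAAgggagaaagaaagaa
KCNS3: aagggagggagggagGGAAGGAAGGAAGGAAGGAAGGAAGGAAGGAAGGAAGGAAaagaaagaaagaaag
KCNE3: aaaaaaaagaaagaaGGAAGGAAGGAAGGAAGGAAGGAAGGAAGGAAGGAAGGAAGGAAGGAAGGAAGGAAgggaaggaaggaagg
KCNMA1: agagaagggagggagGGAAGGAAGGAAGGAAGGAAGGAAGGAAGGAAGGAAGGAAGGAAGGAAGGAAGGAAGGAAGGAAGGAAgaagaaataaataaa
KCNK3: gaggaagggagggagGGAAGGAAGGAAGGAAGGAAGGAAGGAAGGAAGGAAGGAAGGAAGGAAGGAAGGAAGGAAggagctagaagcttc

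In GRCh37 (hg19) coordinates the KCNN1 run of 14 units lies at chr19:18076835-18076890, 1.08 kb upstream of the canonical start and in an intron of longer KCNN1 transcripts, and the KCNA2 run of 13 units at chr1:111153642-111153693, 4.66 kb upstream and likewise in an intron of longer transcripts. The KCNH4 run of 11 units (chr17:40335433-40335476), the KCNS3 run of 10 (chr2:18053425-18053464) and the KCNE4 run of 8 (chr2:223906660-223906691) are intergenic, 2.27, 6.51 and 10.2 kb upstream. The KCNE3 run of 14 units at chr11:74140631-74140686 lies 38.0 kb downstream of the start, in an intron of a noncoding gene. The KCNMA1 run, the longest at 17 units (chr10:79410275-79410342), and the KCNK3 run of 15 (chr2:26893442-26893501) are intergenic, 12.7 and 22.1 kb upstream. Long runs thus lay near genes of both directions. The ETS consensus CCGGAAGT was found on neither strand in the 250 bases upstream of the canonical start of any of the 86 genes, and in 5.75% of those of protein-coding genes, and GGAA itself in 89.5% and 91.8%.

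**Figure D5:**
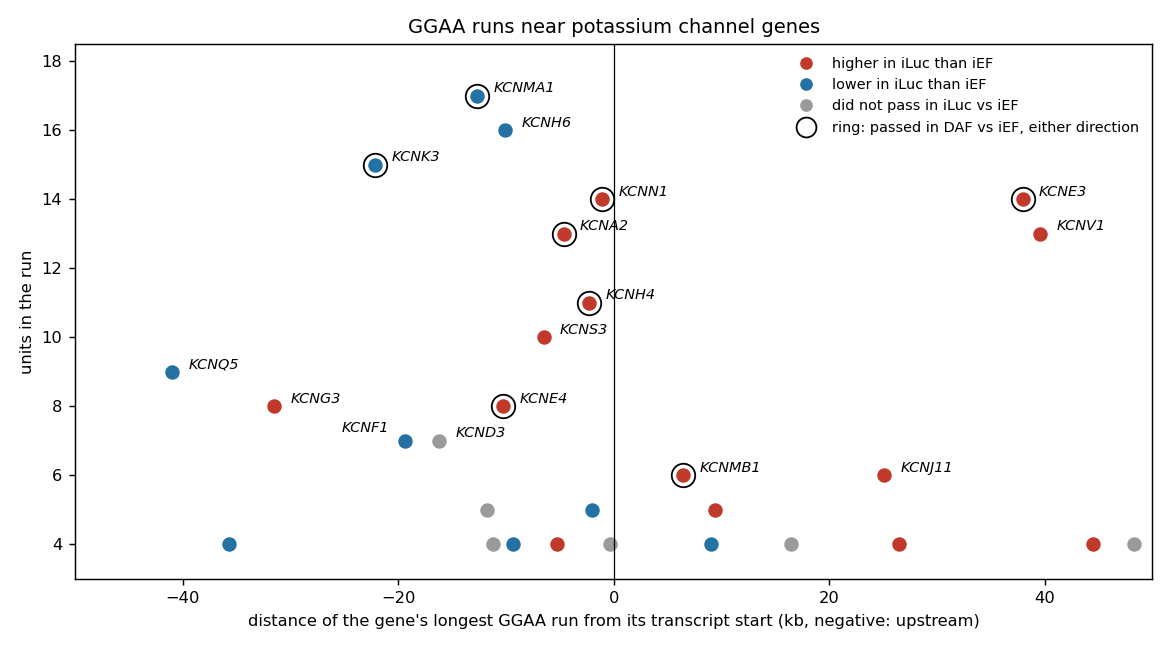
Units in the longest GGAA run (y axis) against its distance from the canonical transcript start in kb (x axis, negative upstream) for the potassium channel genes with a run of 4 or more units within 50 kb. Colour gives the iLuc over iEF call, rings mark genes that passed in DAF over iEF, and genes with 6 or more units are labelled. KCNN1, KCNA2 and KCNH4 have runs of 11 to 14 units within 5 kb of the start, and KCNMA1 and KCNK3, lower in iLuc, have runs of 17 and 15.

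Other genes of ion transport gave a setting for these values. Between iLuc and iEF, 54.7% of protein-coding genes changed, and 41.1% of all genes (18.7% higher and 22.4% lower). No test set the lists below against these shares. Of 13 potassium pump and cotransporter genes, 4 were higher and 8 lower in iLuc (median log2 difference -0.81), of 10 calcium channel pore genes 4 were higher and 2 lower (median 1.34), and of 8 tested sodium channel pore genes 2 were higher and 3 lower (median -0.24). The 4 HCN genes had 1 in each direction, and of the 5 tested partner subunits without the KCN prefix, 1 was higher and 2, ABCC9 and LRRC55, were lower. ABCC9, the regulatory partner of KCNJ8 and KCNJ11 in the ATP-sensitive channel, was also lower than iEF with every construct, del22 included. SLC12A4 and SCN4A were lower with del22 too, and no other of these genes passed there, where 4.04% of protein-coding genes did. The iEF libraries differed widely for ABCC9 (11.5 ± 14.9 CPM, SD) and SCN4A (1.03 ± 1.05). These genes were not retested with single libraries left out.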

How the data were processed

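Total RNA (RNeasy) from 21 A673 libraries was sequenced by the authors as paired ends on a HiSeq instrument after ScriptSeq library preparation. Per the methods and the submitters' processing notes, reads were aligned to hg19 with STAR (2.5.1b in the notes) and counted by htseq-count with its intersection-strict setting. The annotation release and strand handling are not given in the sources used here. The deposited values used here are raw counts per gene before any batch adjustment. A second deposited table holds the signal left after the authors adjusted these counts for replicate set with ComBat, and served for an alternative only. The deposited table also holds the authors' DESeq2 comparisons, which were not used.

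Groups were taken from the sample titles, and 0 per-sample count columns were left unused. Columns marked mut9d were read as DAF-mut9 from those titles. Genes with a mean of 1 or more counts per library were kept (30549 of 57820). Counts of all 21 libraries were fitted in R 4.3.3 with edgeR 4.0.16 (TMM scaling, quasi-likelihood test, Benjamini-Hochberg adjustment over all genes, threshold 0.05), with group and replicate set as terms, because the study adjusted its replicate sets with ComBat. SE is the log2 fold change divided by the square root of F. Deviations from group means, over 14250 genes, had a median correlation of 0.158 in 63 pairs of libraries with the same number (-0.126 to 0.541, 42 over 0.1) and -0.0906 in 126 other pairs, so the numbers mark shared sets only in part. Replicates are separate KD/rescue experiments in 1 line. The p-values rest on the spread left after group and replicate set are fitted, estimated over all 21 libraries.

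Protein-coding status, exon lengths and exon overlap came from GENCODE release 44 mapped to GRCh37. Intervals and floors (3 counts over a group) cover counting error only. The values of 1 member, included in the counts, and of some marker genes are not reported here. Members and gene lists were chosen with earlier results of these data known. Named genes were those with a mean of 1 CPM or more, an adjusted p below 0.05 and 1 direction in all 3 replicate sets (up to 10 each way in iLuc vs iEF, 6 in WT-EF, mut9 and DAF vs iEF and DAF vs del22, 3 in other comparisons), plus the 2 members of each class highest per kb; in a count of 5 or fewer every member may be named. The procedure was tested on simulated counts, with changes set only in iLuc and not in genes of low count. That test therefore does not cover low genes or the interaction. Alternatives were DESeq2 1.42.0, another scaling (RLE), no replicate block, no low-count filter, edgeR's filterByExpr, the compared groups only, ComBat-adjusted values tested with limma 3.58.1 on log2(value + 1), omission of each library, a 2-fold minimum and omission of the 37 members whose exons overlap another gene.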

Additional observations from a re-analysis of the deposited data

Results flagged for a closer look

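The effect of the tyrosine substitutions differed between the deleted form (DAF-mut9 against mut9) and the full-length form (DAF against WT-EF) in 7 potassium channel genes by edgeR's interaction test, on the log2 scale with SE and 3 libraries a group. KCNK3 differed by 4.45 ± 0.31 in the full-length form and 2.06 ± 0.27 in the deleted form (interaction -2.40 ± 0.40, adjusted p = 0.00118). KCNN1 differed by -0.95 ± 0.23 in the full-length form and -2.28 ± 0.25 in the deleted form (interaction -1.32 ± 0.33, adjusted p = 0.0296). KCNE4 differed by 0.25 ± 0.18 in the full-length form and -0.68 ± 0.18 in the deleted form (interaction -0.93 ± 0.25, adjusted p = 0.0431). KCNN3 differed by 1.03 ± 0.26 in the full-length form and -0.36 ± 0.25 in the deleted form (interaction -1.38 ± 0.36, adjusted p = 0.0361). KCND1 differed by 0.58 ± 0.30 in the full-length form and -1.06 ± 0.30 in the deleted form (interaction -1.65 ± 0.43, adjusted p = 0.0359). KCND1 is a Shal-type channel of the transient outward current. KCNH3 differed by -1.88 ± 0.22 in the full-length form and -0.60 ± 0.22 in the deleted form (interaction 1.27 ± 0.31, adjusted p = 0.026). KCNH4 differed by -0.06 ± 0.46 in the full-length form and -2.53 ± 0.47 in the deleted form (interaction -2.47 ± 0.66, adjusted p = 0.0421), and it was named after its values were seen, since it lay under 1 CPM. KCND1 averaged 1.55 ± 0.196, 2.39 ± 0.972, 2.74 ± 0.712 and 1.33 ± 0.260 CPM (SD, n = 3) in WT-EF, DAF, mut9 and DAF-mut9, and KCNN3 2.64 ± 0.104, 5.40 ± 0.458, 5.63 ± 1.56 and 4.45 ± 0.828. No group had enough libraries for an outlier test. With no replicate block only KCNK3 and KCNN3 passed, so KCNN1, KCNE4 and KCNH4 lost their calls too. The adjusted p of KCND1 was then 0.0659 and that of KCNH3 0.0813. Without WT-EF replicate 2 or without mut9 replicate 1 the count was 1. On leaving out 1 library the calls of KCND1 and KCNN3 were lost in 8 and 11 of 12 cases and that of KCNH3 in 7.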

How the results depend on the processing

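The counts of changed potassium channel genes kept within 1.5 times of their values under RLE scaling and filterByExpr. Omission of the 37 members with exon overlap left, against iEF, 31 (iLuc), 23 (WT-EF), 17 (mut9), 6 (DAF), 1 (DAF-mut9) and 2 (del22), and otherwise 20 for WT-EF vs iLuc, 4 for mut9 vs WT-EF, 15 for DAF vs WT-EF, 12 for DAF-mut9 vs mut9, 16 for WT-EF vs del22 and 13 for mut9 vs del22, of fewer genes examined. With no replicate block the counts were 3 for DAF-mut9 vs iEF, 2 for DAF vs del22 and 2 for the interaction. With no low-count filter they were 16 for DAF-mut9, 13 for del22, 16 for mut9 vs WT-EF, 7 for DAF vs del22 and 13 for the interaction, and the cause was not tested. ComBat-adjusted values gave 2 for DAF-mut9 and 1 for del22, a 2-fold minimum 3, 3 and 2 for DAF-mut9, del22 and DAF vs del22, DESeq2 8 for del22 and 14 for mut9 vs WT-EF, and the compared groups alone 18 for mut9 vs WT-EF and 11 for the interaction. Omission of 1 library gave, against iEF, 42 to 47 (iLuc), 29 to 34 (WT-EF), 22 to 30 (mut9), 9 to 12 (DAF), 1 to 7 (DAF-mut9) and 1 to 8 (del22), and otherwise 24 to 32 for WT-EF vs iLuc, 2 to 10 for mut9 vs WT-EF, 23 to 27 for DAF vs WT-EF, 15 to 19 for DAF-mut9 vs mut9, 1 to 4 for DAF vs del22, 22 to 28 for WT-EF vs del22, 15 to 19 for mut9 vs del22 and 1 to 7 for the interaction.

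Of 102 changes of named genes, 78 held their call under every alternative run, 24 lost it under 1 or more and 0 changed direction. KCNN4, KCNJ2, KCNH1 and KCNMB2 had 12 alternatives where other genes had 13, without a ComBat-adjusted value. Their calls were therefore not examined with that alternative. KCNA2 with DAF over iEF was 0.64 with ComBat-adjusted values (adjusted p = 0.131), and KCNG1 with mut9 was -1.05 without iEF replicate 3 (adjusted p = 0.0639). Genes under 1 CPM rest on few reads, and members with exon overlap on reads that may belong to another gene.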
